A study of Mus musculus with 22 samples.

Results

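Arterial smooth muscle cells of the mouse aorta were compared with those of the kidney, across all genes of the deposited expression table. The comparison takes 6 of the 22 libraries of the series, 3 from aorta and 3 from kidney, chosen by their tissue labels. Both groups carry the genotype Cspg4-Dre/Acta2-CreERT/R26-GFP: a Dre recombinase driven by the Cspg4 locus, a tamoxifen-inducible Cre driven by the smooth muscle actin gene Acta2, and a green fluorescent reporter at the R26 locus. All mice received tamoxifen by intraperitoneal injection in corn oil on 3 days, with a dose of 0.75 mg for each 10 g of body weight. Cells were isolated by fluorescence-activated sorting, and no more than 10 ng of RNA per library was carried into SMART-Seq v4 cDNA synthesis. The labels give no age, do not say which stretch of the renal arterial tree was taken, and do not say whether libraries came from separate animals, so the p-values below measure the spread between these libraries, which may be technical. The study set out to compare arterial smooth muscle between organs; aorta against kidney sets the largest conduit artery beside vessels of an organ that regulates its own flow.

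The aorta is an elastic vessel, whose smooth muscle lays down layers of elastin and collagen that store part of each heartbeat and release it between beats. The small arteries and arterioles of the kidney hold their resistance by active tone: G-protein-coupled receptors for angiotensin, endothelin and noradrenaline, together with mechanosensitive and calcium-permeable channels, set the calcium that drives contraction. At the end of the afferent arteriole, smooth muscle of the same lineage makes renin, the enzyme that starts the angiotensin cascade. Smooth muscle of different organs also comes from different embryonic sources, and Hox genes keep a record of position along the body axis in adult mesenchyme.

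The deposited values are a scaled signal per gene, and the libraries differed in how many reads stand behind it. Dividing each library by the estimated signal of 1 read gave about 629456, 1540366 and 1927765 reads in aorta 1, 2 and 3, against 12475290, 8268305 and 4943883 in kidney 1, 2 and 3. The steps between low values show the worth of 1 read directly in aorta 1, and in the other libraries it is an estimate, as are all read numbers built on it. A signal of 3 reads, taken as the floor for a gene listed at 0, was therefore 28.3, 12.2 and 9.9 in the aorta libraries and 1.4, 2.0 and 3.4 in the kidney libraries. Abundant short genes reached a ceiling in reads: Myl9, a myosin light chain (ENSMUSG00000067818, mm39 chromosome 2, 156617340 to 156623578), held 2069, 2189 and 2174 reads in aorta and 2298, 2268 and 2181 in kidney, while its signal was 19491, 8873 and 7180 in aorta and 1048, 1497 and 2473 in kidney. Genes that reached 0.5 reads per exonic base in any of the 6 libraries are called near the ceiling; they were 1687 of the 11868 tested, and their signal in part follows the worth of 1 read. Libraries of aorta correlated with each other at 0.701 to 0.768 across tested genes and those of kidney at 0.846 to 0.917. Kidney 2 stood a little apart from kidney 1 and 3, with a higher summed signal of endothelial markers. The reads carry no molecular identifiers, so these floors cover counting error only.

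The smooth muscle identity of both groups was checked on Acta2, Myh11, Tagln, Cnn1 and Smtn, all of which were present in each of the 6 libraries. Myh11, smooth muscle myosin heavy chain (ENSMUSG00000018830, chromosome 16, 14012399 to 14109236), was at 12134, 13846 and 22198 in aorta and 6075, 7853 and 13518 in kidney. The groups overlapped, and the log2 fold change of 0.88 ± 0.64 (SE) did not pass (limma adjusted p = 0.318). Myh11 is near the ceiling in reads, described above. Acta2, the driver of the Cre (ENSMUSG00000035783, chromosome 19, 34218490 to 34232990), had a signal of 25011, 11743 and 10308 in aorta and 1662, 2237 and 3440 in kidney. All 3 aorta values lay above those of kidney (log2 fold change 2.46 ± 0.55, limma adjusted p = 0.00401), but the call was lost without aorta 2 and Acta2 is near the ceiling: its rebuilt reads were 2655, 2897 and 3121 in aorta and 3644, 3390 and 3034 in kidney. Cspg4, the mural cell proteoglycan NG2 and driver of the Dre (ENSMUSG00000032911, chromosome 9, 56772317 to 56807154), was at 122, 227 and 637 in aorta and at 2321, 65 and 2542 in kidney. Kidney 2 lay below all other libraries for Cspg4, and the gene did not pass (limma adjusted p = 0.252).

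More genes were higher in kidney than in aorta. Of 11868 tested genes, 2796 (23.6%) passed a Benjamini-Hochberg adjusted p of 0.05 in limma, 713 (6.01%) of them higher in aorta and 2083 (17.6%) higher in kidney. The 3 aorta libraries all lay above the 3 kidney libraries in 1407 genes (11.9%), and the 3 kidney libraries all above those of aorta in 3037 (25.6%). The median log2 fold change, aorta minus kidney on log2(signal + 10), was -0.56 over all tested genes, and fold changes below are read against it. Likewise, counts of list members below are to be read against the shares of 6.01% higher in aorta and 17.6% higher in kidney. Count tests on the rebuilt reads divided the calls more evenly, with 1837 genes higher in aorta and 2266 higher in kidney in edgeR, and 1955 and 3170 in DESeq2. The counts rest on single libraries, and most on aorta 2: without it, 54 genes were higher in aorta and 364 in kidney. Leaving out aorta 1, aorta 3, kidney 1 or kidney 3 gave 362, 279, 301 and 427 higher in aorta and 1085, 1575, 1037 and 1150 higher in kidney.

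**Figure D1:**
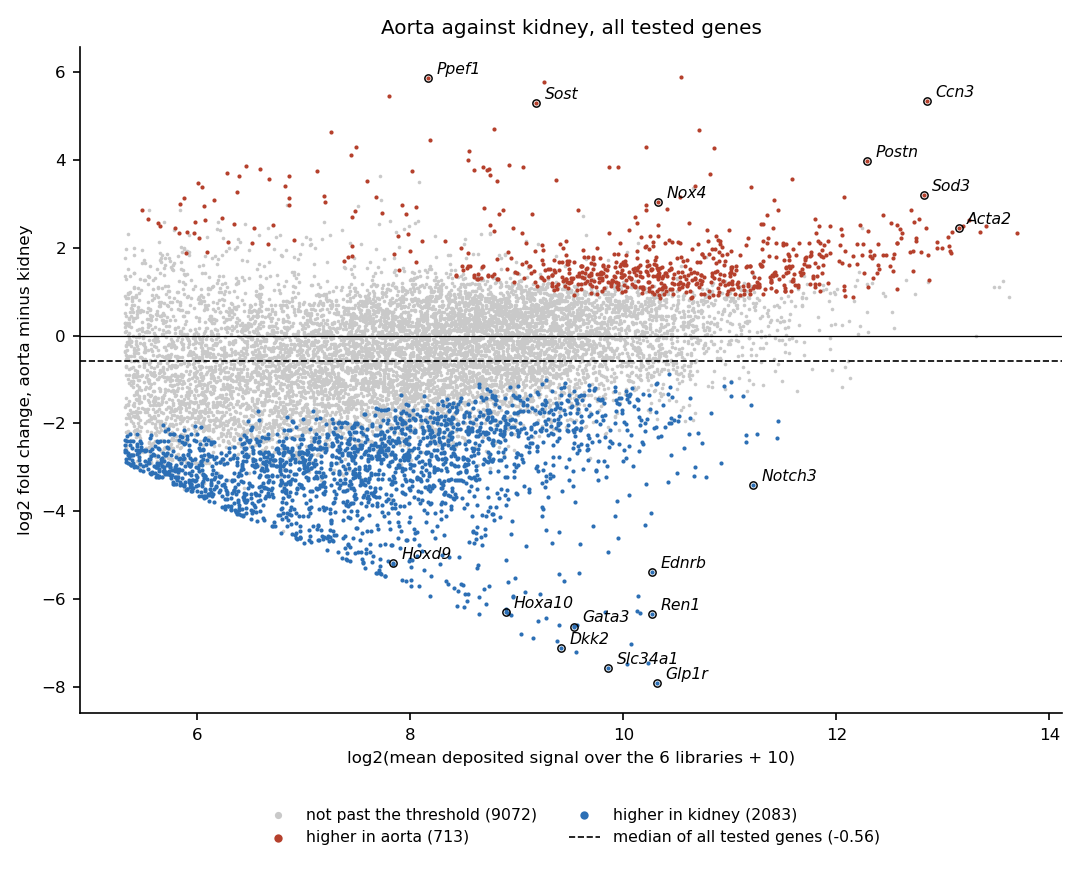
Log2 fold change (aorta minus kidney, vertical) against the mean deposited signal over the 6 libraries (log2 of signal + 10, horizontal) for 11868 tested genes; each point is a gene, red and blue points passed the threshold, and the dashed line is the median of all genes at -0.56. The 713 genes higher in aorta include Ccn3 and Sost, and the 2083 higher in kidney reach down to the lower edge, where the aorta libraries are at or near 0.

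The other 5 tissues of the series place these differences. Aorta had the highest mean of all 7 tissues in 628 of the 713 genes higher in aorta (88.1%), against 15.2% of all tested genes. Kidney was the lowest of the 7 in 120 of them (16.8%), against 7.79% of all tested genes. Of the 2083 genes higher in kidney, aorta was the lowest tissue in 1564 (75.1%) and kidney the highest in 759 (36.4%), against 33.8% and 15.1% of all tested genes. The genes were chosen for the difference between aorta and kidney, which favours each of these places, so the shares are a description.

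Markers of other renal cells were present in the kidney libraries. Of 30 markers of nephron tubules 29 were tested and 25 were higher in kidney (19 without aorta 2 and 24 or 25 without any other library), where their summed signal was 15857, 20810 and 40051, against 3049 to 4821 in aorta. In aorta, 14 of the 30 were at 0 in all 3 libraries, and Gpx3, the only marker above 1000 in an aorta library, held most of the sum. Slc34a1, the phosphate transporter of the proximal tubule (chromosome 13, 55546000 to 55563405), was at 1780, 1303 and 2420 in kidney and 0 in aorta, at least 109-fold higher in kidney. Umod, the urinary protein of the thick ascending limb, was at 966, 1820 and 3438 against 0, at least 124-fold higher. Slc12a1, the sodium-potassium-chloride transporter of the same segment, was at 840, 787 and 5538 against 0, at least 142-fold higher.

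All 3 of these genes are near the ceiling in reads, and kidney 3 had the highest sum of tubule markers. As with the Hox genes below, most of these markers passed the filter on low values through kidney alone, so the count is a description; the median log2 fold change was -5.23, or -4.83 with genes at 0 in aorta set to their bound. All 20 endothelial markers were tested and 15 were higher in kidney (2 without aorta 2, 4 without aorta 3 and 14 or 15 without another library), with a summed signal of 11609, 22394 and 12435 in kidney against 2679 to 5661 in aorta. Emcn, an endothelial sialomucin, was at 731, 1309 and 753 in kidney and at 0, 0 and 3 in aorta. Robo4 was the only endothelial marker at 0 in all aorta libraries. Of 10 podocyte markers 7 were tested and 4, Podxl and Wt1 among them, were higher in kidney, with sums of 5007 to 5208 against 944 to 1688; without aorta 2 there were 2. No marker of these 3 lists was higher in aorta in limma, at an unadjusted p under 0.05 or in edgeR.

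The sums of some other marker lists were highest in single aorta libraries. Skeletal muscle markers summed to 27537 in aorta 3 against 574 and 1156 in aorta 1 and 2 and 183 to 363 in kidney. Acta1, the skeletal actin, was at 9026 in aorta 3 and at 226 and 122 in the other aorta libraries. Fibroblast markers summed to 95901, 42203 and 24449 in aorta and to 12231, 21039 and 28970 in kidney. Dcn and Gsn, which lead that sum, are near the ceiling. In limma 3 of the 17 fibroblast markers were higher in aorta and 2 in kidney, beside 6.01% and 17.6% of all tested genes. Their median log2 fold change was -0.62 against -0.56 for all genes. Among the 10 under the ceiling 2 were higher in kidney and none in aorta, and without aorta 2 no fibroblast marker passed. The part of RNA from these other cell types in the differences below was not tested, apart from values given without a library. In bulk samples, fewer cells of a type and less RNA per cell cannot be told apart.

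**Figure D2:**
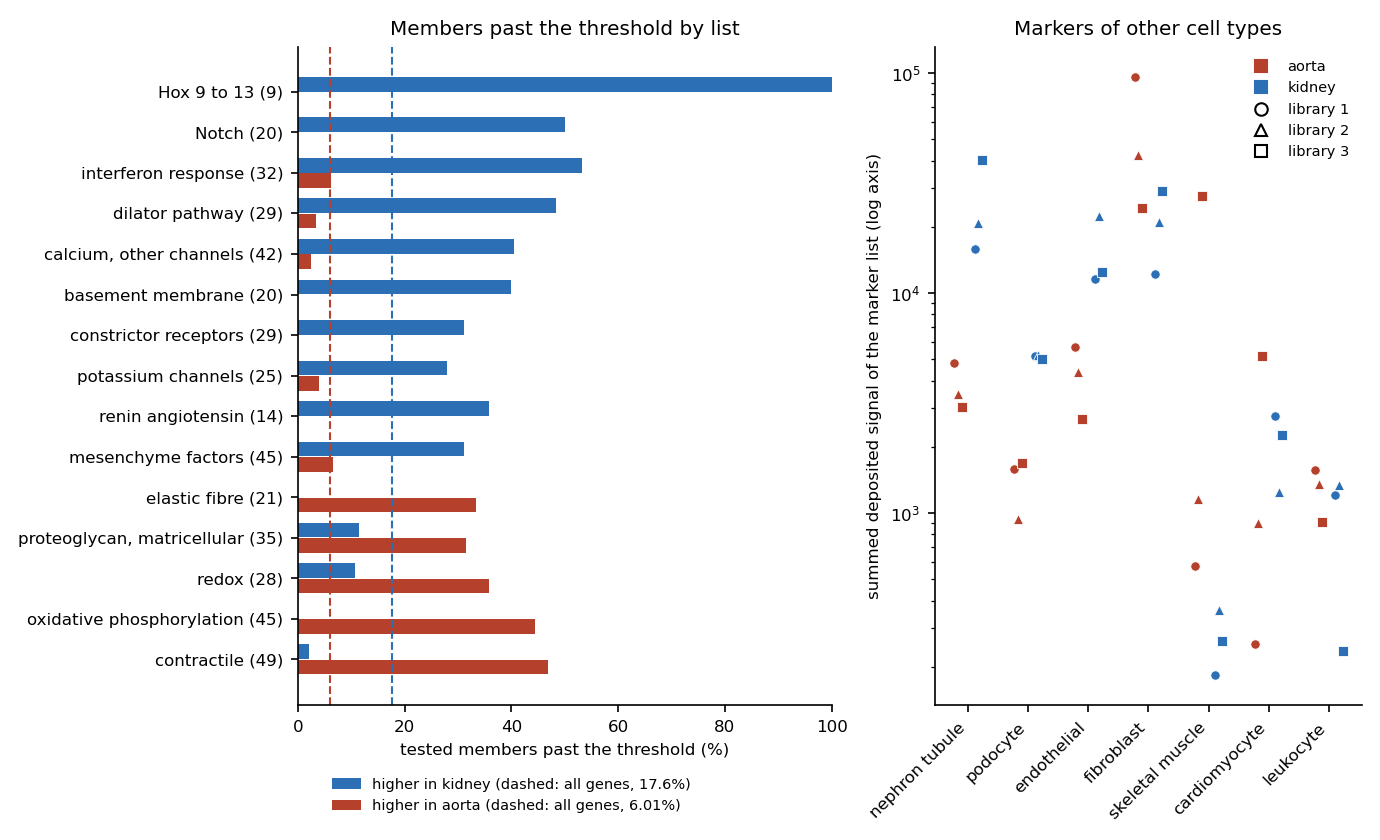
Left, share of tested members of each gene list (number tested in parentheses) that passed the threshold, blue for higher in kidney and red for higher in aorta, with dashed lines at the shares of all genes, 17.6% and 6.01%; right, summed deposited signal (log axis) of marker lists of other cell types in each library. Posterior Hox genes stand at 9 of 9 on the kidney side, and the skeletal muscle sum of aorta 3 at 27537 lies apart from all other libraries.

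Posterior Hox genes had a signal in the kidney libraries and were near 0 in those of aorta. Of 15 genes of Hox groups 9 to 13 in the table, 9 passed the filter on low values and all 9 were higher in kidney. The median log2 fold change was -4.23, or -3.86 with genes at 0 in aorta set to their bound. Since their aorta signal was near 0 they passed that filter through kidney alone, so the count is a description. The count was 8 without aorta 2 or without aorta 3 and 9 without any of the others. Hoxa9 (chromosome 6, 52200080 to 52208069) was at 532, 575 and 463 in kidney and at 0 in all 3 aorta libraries, at least 31.2-fold higher in kidney. Hoxa10 (chromosome 6, 52208177 to 52217834) was at 831, 1115 and 838 in kidney, and 1 read in aorta 1 was all that the aorta libraries held (limma adjusted p = 7.1e-06). Hoxd9 (chromosome 2, 74528071 to 74530552) was at 378, 496 and 434 in kidney against 1 read in aorta 2 (limma adjusted p = 0.000111). Hoxd10 (chromosome 2, 74522268 to 74525449) was at 211, 222 and 138 against 0, at least 11.3-fold higher in kidney.

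The 3 kidney libraries lay close together for each of these genes. Among the other 5 tissues, Hoxa10 reached 1012 in bladder and at most 2.7 elsewhere, so kidney shared it with bladder. Of 15 tested genes of Hox groups 1 to 8, limma called none higher in aorta (1 at an unadjusted p under 0.05, and 4 in edgeR) and 1, Hoxd8, higher in kidney; its signal was 560, 916 and 1000 in kidney and 0, 0 and 20 in aorta (log2 fold change -5.71 ± 0.96, limma adjusted p = 0.000389). Hoxa7, the anterior member with the highest mean, was at 933, 863 and 489 in aorta and 193, 307 and 214 in kidney. Its groups did not overlap, but the gene did not pass (limma adjusted p = 0.255).

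Other transcription factors of mesenchymal position set the tissues apart as well. Of 45 tested members of that list 14 were higher in kidney and 3 in aorta, beside 17.6% and 6.01% of all tested genes. The median log2 fold change was -0.44 against -0.56 for all genes. Without aorta 2 the kidney count was 6 and the aorta count 1; without aorta 3 the kidney count was 9, and without kidney 1 the aorta count was 5. Gata3, a zinc finger factor that mesangial and renin cells need (chromosome 2, 9861889 to 9894845), was at 1531, 1511 and 1346 in kidney against 3 reads in all of aorta (limma adjusted p = 6.06e-05). Gata3 is near the ceiling in reads. Tubule markers were higher in the same kidney libraries, and their part in this result was not tested.

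Tbx2 and Tbx3 are related T-box repressors. Tbx2 was at 2559, 2303 and 3604 in kidney and 57, 973 and 149 in aorta (log2 fold change -3.19 ± 0.55, limma adjusted p = 0.000529), and Tbx3 at 1373, 354 and 987 against 0, 8 and 73 (limma adjusted p = 8.67e-05). For both, aorta was below all 5 other tissues, whose means ran from 1447 to 3823 for Tbx2 and from 293 to 1465 for Tbx3. On the aorta side stood Osr1, Tbx1 and Pax1. Osr1, a zinc finger factor of intermediate and lateral mesoderm, was at 1470, 2148 and 1777 in aorta and 76, 267 and 142 in kidney (log2 fold change 3.84 ± 0.78, limma adjusted p = 0.00205, lost without aorta 2). Tbx1, a factor of the pharyngeal arches and the cardiac outflow tract, was at 160, 69 and 211 in aorta and 0, 1 and 1 in kidney, which together amount to 3 reads or fewer per library. Pax1, a factor of the sclerotome and pharyngeal pouches, was at 245, 276 and 17 in aorta and 24, 0 and 7 in kidney, with overlapping groups.

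**Figure D3:**
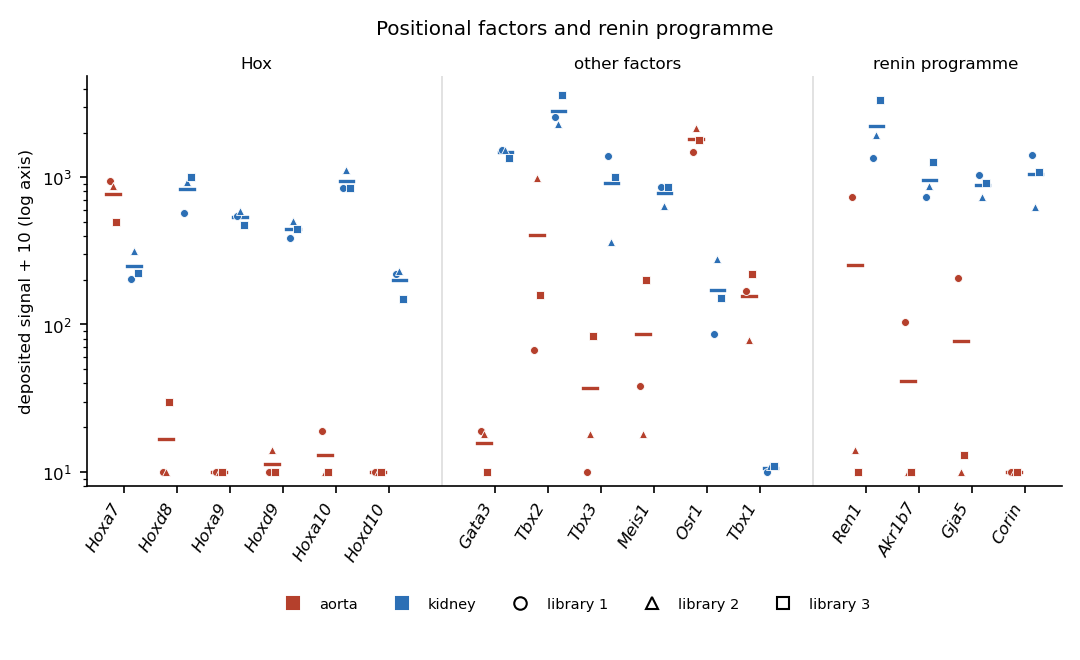
Deposited signal plus 10 (log axis) of Hox genes, other positional factors and genes of the renin programme in each of the 3 aorta (red) and 3 kidney (blue) libraries; symbols mark the library and bars the group mean. Hoxa9, Hoxd10 and Corin were at 0 in all aorta libraries, while Osr1 and Tbx1 lie higher in aorta.

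Renin was high in all 3 kidney libraries, and 1 aorta library held it as well. Ren1 (ENSMUSG00000070645, chromosome 1, 133278248 to 133288063) was at 1345, 1934 and 3337 in kidney, from 2949, 2930 and 2944 reads, so all kidney libraries sat at a ceiling for it. In aorta it was at 725 from 77 reads in aorta 1, at 4 from 1 read in aorta 2 and at 0 in aorta 3. The log2 fold change was -6.35 ± 1.06 (limma adjusted p = 0.000385) and ranged from -7.43 to -4.34 over fits that leave out 1 library, with the call lost without aorta 2. Akr1b7, an aldo-keto reductase that marks renin cells, was at 722, 857 and 1264 in kidney and at 94, 0 and 0 in aorta, so aorta 1 again held the only aorta signal (log2 fold change -5.94 ± 0.82, limma adjusted p = 5.49e-05). Gja5, a gap junction protein of renin cells and endothelium, followed with 1023, 721 and 899 in kidney and 198, 0 and 3 in aorta (log2 fold change -5.61 ± 1.19, limma adjusted p = 0.00285, lost without aorta 2 or 3).

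The sequence just upstream of Ren1 is shown because both renin and posterior Hox genes were high in the same kidney libraries. In the mouse renin promoter, a site near the start that binds HOX and PBX factors together is known to be needed for expression. The 250 bases before the RefSeq start of Ren1, GRCm38.p6 chr1:133350424-133350673 on the plus strand, hold 1 match to the HOX-PBX core TGATTTAT, searched on both strands. The match lies on the minus strand, 63 to 56 bases before the start, and stands in capitals, as it reads on the plus strand.
Ren1 upstream: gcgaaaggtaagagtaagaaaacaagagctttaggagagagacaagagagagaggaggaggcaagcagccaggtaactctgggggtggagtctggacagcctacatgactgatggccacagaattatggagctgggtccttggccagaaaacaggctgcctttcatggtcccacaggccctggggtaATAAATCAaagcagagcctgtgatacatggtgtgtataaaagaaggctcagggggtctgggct
The same letters occur on either strand in 275 of 32851 RefSeq windows of this length (0.837%). The match describes the sequence and says nothing of binding in these cells. Pbx2 was higher in kidney and Meis1, a partner of HOX and PBX proteins, was at 854, 626 and 849 in kidney and 28, 8 and 192 in aorta (log2 fold change -4.07 ± 0.66, limma adjusted p = 0.000295).

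Of 24 tested genes linked to renin cells and mesangium, 9 were higher in kidney and 4 in aorta (3 and 2 without aorta 2, 5 and 2 without aorta 3, and 5 and 4 without kidney 1). The 4 higher in aorta were Serpine2, Art3, Tagln2 and Cnn1, of which Serpine2, Tagln2 and Cnn1 are near the ceiling. Serpine2, a protease inhibitor, was at 17588, 14511 and 11569 in aorta and 2200, 2706 and 3368 in kidney (log2 fold change 2.36 ± 0.41, limma adjusted p = 0.000513). Among 14 tested genes of the renin-angiotensin system 5 were higher in kidney in limma and none in aorta (none at an unadjusted p under 0.05, and none in edgeR), with a median of -1.64; none of the 5 passed without aorta 2, and 2 passed without aorta 3. Besides Ren1 these were Agtr1a, Mme, Anpep and Hsd11b2. Agtr1a, the main angiotensin II receptor of mouse vessels, was at 1468, 1057 and 1262 in kidney and 113, 320 and 33 in aorta (log2 fold change -3.30 ± 0.90, limma adjusted p = 0.0132, lost without aorta 2 or 3). Mme (neprilysin), Anpep and Hsd11b2 are also genes of tubule cells. Tubule markers were higher in the same kidney libraries, and their part in these results was not tested. Anpep was at 213, 211 and 371 in kidney and 236, 20 and 36 in aorta, so its groups overlapped.

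Corin and Glp1r were among the 12 largest differences toward kidney. Corin, a membrane protease that activates natriuretic peptides, was at 1407, 616 and 1079 in kidney and 0 in all aorta libraries, at least 61.6-fold higher. Glp1r, the receptor of the incretin GLP-1 and known in renal arterioles (chromosome 17, 31120791 to 31159765), was at 3251, 1472 and 2859 in kidney and rested on 1 read in all of aorta (limma adjusted p = 0.00744, lost without aorta 2 or 3). Its mean in the other 5 tissues ran from 3.3 in bladder and heart to 511 in stomach.

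Of 29 tested receptors for constrictors 9 were higher in kidney, 20 did not pass and none was higher in aorta in limma, although 1 was higher in aorta at an unadjusted p under 0.05 and 2 in edgeR. The median was -1.94 against -0.56 for all genes, and 2 members passed without aorta 2, 5 without aorta 1, aorta 3 or kidney 3, and 6 without kidney 1. Ednra, the endothelin receptor of smooth muscle, was at 2488, 1733 and 2208 in kidney and 38, 251 and 357 in aorta. The groups did not overlap (log2 fold change -3.37 ± 0.58, limma adjusted p = 0.000485), and the call held without any 1 library. Ednrb, the second endothelin receptor (chromosome 14, 104052061 to 104081838), was at 2952, 1614 and 2451 in kidney and 19, 300 and 0 in aorta (log2 fold change -5.39 ± 0.79, limma adjusted p = 9.69e-05). Ednrb is also abundant in endothelium, and endothelial markers were higher in the kidney libraries. Their sum was highest in kidney 2, where Ednrb was lowest of the 3, and their part in the result was not tested.

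Adra1a, an alpha-1 adrenergic receptor for noradrenaline, was at 545, 345 and 330 in kidney and 0, 0 and 26 in aorta (log2 fold change -4.75 ± 1.30, limma adjusted p = 0.0134, lost without aorta 2). P2rx1, the ATP-gated channel of sympathetic transmission, was at 490, 3093 and 1859 in aorta and 2062, 2830 and 2926 in kidney, so the groups overlapped (limma adjusted p = 0.748). S1pr3, a sphingosine-1-phosphate receptor, was at 3207, 4286 and 5656 in kidney and 1225, 1901 and 499 in aorta (log2 fold change -1.94 ± 0.69, limma adjusted p = 0.0445, kept only without kidney 2 among the fits that leave out 1 library). S1pr1, its relative of endothelium, was at 427, 923 and 429 in kidney against 226, 0 and 79 (limma adjusted p = 0.00258, lost without aorta 2).

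Of 29 tested receptors and enzymes of the dilator pathways 14 were higher in kidney, 1 was higher in aorta and 14 did not pass, with a median of -1.94. Without aorta 2 there were 3 higher in kidney, and 9 without any 1 of aorta 1, aorta 3, kidney 1 or kidney 3. Ptger4, a prostaglandin E2 receptor that raises cyclic AMP, was at 327, 461 and 444 in kidney and 0, 0 and 50 in aorta (log2 fold change -4.40 ± 0.71, limma adjusted p = 0.000269). Drd1, a dopamine receptor that relaxes renal vessels, was at 563, 259 and 331 in kidney and 0, 32 and 0 in aorta (log2 fold change -4.40 ± 1.02, limma adjusted p = 0.00511). Both held without any 1 library. Adcyap1r1, the receptor of the peptide PACAP, was at 669, 71 and 218 in kidney and 0 in aorta, at least 19-fold higher, and was lost without aorta 2.

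The member higher in aorta was Ramp1, the accessory protein that turns the calcitonin receptor-like receptor into a CGRP receptor. It was at 3552, 3113 and 2540 in aorta and 612, 848 and 516 in kidney (log2 fold change 2.27 ± 0.46, limma adjusted p = 0.00194, lost without aorta 2). Ramp3, which favours adrenomedullin, was at 96, 228 and 80 in kidney and 0 in aorta, at least 8.03-fold higher but lost without aorta 2 or 3, and Calcrl, the receptor that both accompany, was at 1671, 976 and 1781 in kidney and 28, 89 and 618 in aorta (log2 fold change -3.29 ± 0.81, limma adjusted p = 0.00753, lost without aorta 1 or 2). The receptor component and 1 accessory protein were thus higher in the kidney libraries and the other accessory protein in those of aorta. Endothelial markers were also higher in the kidney libraries, and their part in these differences was not tested. Gucy1a1, a subunit of the nitric oxide receptor guanylyl cyclase, overlapped between the tissues, at 1564, 1921 and 2603 in aorta and 3177, 1814 and 2926 in kidney (limma adjusted p = 0.514).

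Of 42 tested genes of calcium, chloride and other cation channels, pumps and calcium stores, 17 were higher in kidney, 1 was higher in aorta and 24 did not pass, with a median of -1.67. The kidney count was 4 without aorta 2, 9 without aorta 1, kidney 1 or kidney 3, and 12 without aorta 3. Trpm4, a calcium-activated cation channel of the myogenic response (chromosome 7, 44952056 to 44983204), was at 754, 405 and 313 in kidney and 0, 0 and 17 in aorta (log2 fold change -5.11 ± 0.84, limma adjusted p = 0.000345). That call held without any 1 library. Trpc6, a receptor-operated and stretch-linked channel, was at 965, 550 and 490 in kidney and 0, 4 and 40 in aorta (log2 fold change -5.04 ± 1.11, limma adjusted p = 0.00361, lost without aorta 2).

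Kidney 1 was the highest kidney library for both of these channels. Ano1, the calcium-activated chloride channel of smooth muscle, was at 3473, 1638 and 3165 in kidney and 396, 308 and 1235 in aorta (log2 fold change -2.45 ± 0.76, limma adjusted p = 0.0248, lost without aorta 1, aorta 2, kidney 1 or kidney 3). The 1 member higher in aorta was Casq1, the calcium buffer of skeletal muscle stores, at 301, 608 and 1460 against 52, 57 and 32 (log2 fold change 3.79 ± 1.12, limma adjusted p = 0.0192); its highest value is in aorta 3, the library with the skeletal muscle markers, and the call was lost without aorta 2, aorta 3 or kidney 3.

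Potassium channels hyperpolarise smooth muscle and oppose contraction. Of 25 tested, 7 were higher in kidney and 1, Kcnc4 (lost without aorta 2, aorta 3, kidney 1 or kidney 3), in aorta. The shares of all tested genes were 17.6% and 6.01%, and the list median was -1.49. The kidney count was 1 without aorta 2, 3 without aorta 3 and 4 without kidney 3. Kcnj2, the inward rectifier Kir2.1 (chromosome 11, 110956990 to 110967647), was at 498, 54 and 514 in kidney and 0 in aorta, at least 21.2-fold higher (lost without aorta 2), with kidney 2 far below the other kidney libraries. Kcnmb1, the beta subunit of the large-conductance calcium-activated channel, was at 2449, 2736 and 3620 in aorta and 1495, 1521 and 1329 in kidney. All aorta values lay above those of kidney, but the gene did not pass (log2 fold change 1.04 ± 0.41, limma adjusted p = 0.0626).

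**Figure D4:**
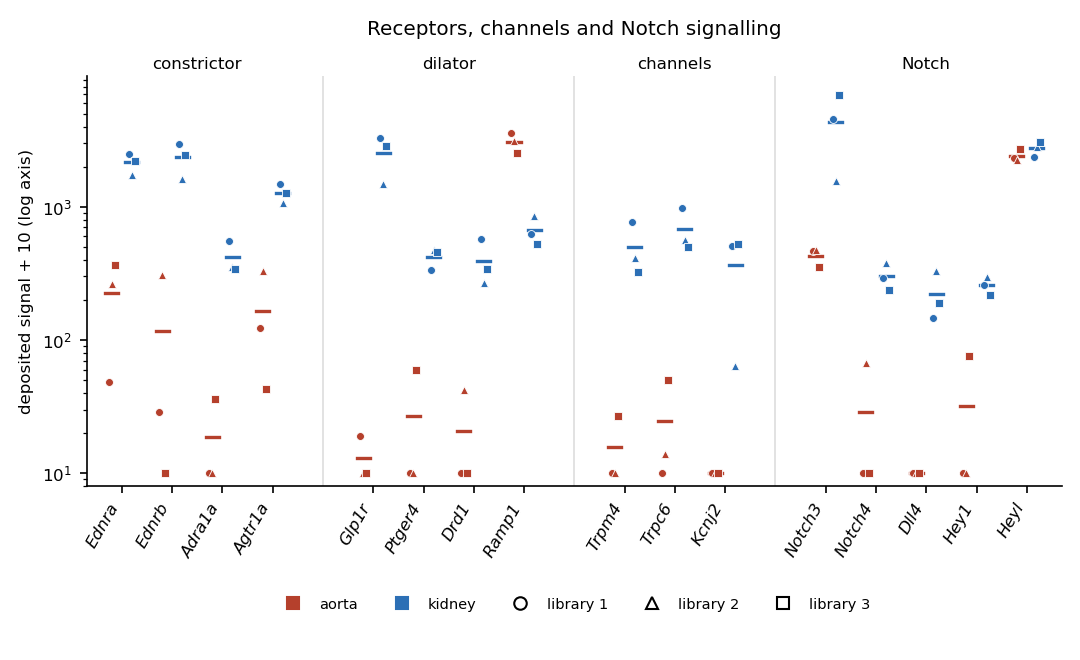
Deposited signal plus 10 (log axis) of constrictor and dilator receptors, ion channels and Notch genes in the 3 aorta (red) and 3 kidney (blue) libraries; symbols mark the library and bars the group mean. Ramp1 is the receptor component shown that lies higher in aorta, and Heyl lies at 2237 to 3052 in all 6 libraries.

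Notch signalling between neighbouring cells of the vessel wall keeps arterial smooth muscle mature, with Notch3 as its main receptor there and Jagged and Delta ligands on endothelium and smooth muscle. Of 20 tested genes of the pathway 10 were higher in kidney in limma and none in aorta (none at an unadjusted p under 0.05, and none in edgeR). In 14 of them all 3 kidney libraries lay above those of aorta, beside 25.6% of all tested genes. The median was -2.08, or -1.97 with genes at 0 in aorta set to their bound. The count was 3 without aorta 2, 5 without kidney 3, 6 without aorta 1 or kidney 1, and 7 without aorta 3. Notch3 (chromosome 17, 32339794 to 32385826) was at 4549, 1546 and 6890 in kidney and 452, 462 and 343 in aorta. The lowest kidney value, in kidney 2, was still above the aorta values (log2 fold change -3.40 ± 0.81, limma adjusted p = 0.00594, lost without aorta 2).

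Among the ligands, Dll4 was at 135, 317 and 179 in kidney and 0 in aorta, at least 12.5-fold higher. Notch4, an endothelial receptor, was at 282, 366 and 228 in kidney and 0, 57 and 0 in aorta (log2 fold change -3.54 ± 0.79, limma adjusted p = 0.00394). Both are endothelial genes by background, both were highest in kidney 2, and so was the endothelial marker sum. The part of endothelial RNA in these differences was not tested. Of the targets, Hey1 was at 248, 288 and 209 in kidney and 0, 0 and 66 in aorta (log2 fold change -3.59 ± 0.73, limma adjusted p = 0.00212, lost without aorta 2). Heyl, another target of Notch3, was at 2317, 2237 and 2688 in aorta and 2368, 2819 and 3052 in kidney. Its groups overlapped, and the difference of -0.16 had an interval from -1.09 to 0.76 on the log2 scale (limma adjusted p = 0.813), so its level was not told apart between tissues although the receptor's was. Heyl and Notch3 are near the ceiling, which limits this contrast. Rebuilt reads of Heyl were 246, 552 and 814 in aorta and 5193, 4271 and 2692 in kidney.

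Of 49 tested contractile genes 23 were higher in aorta, 1 was higher in kidney and 25 did not pass, with a median log2 fold change of 1.04. Of these 49, 39 were near the ceiling; among the 10 under it 1 was higher in aorta and 1 in kidney, with a median of -0.55. Without aorta 2 the aorta count was 4. Actg2, the gamma actin of visceral smooth muscle, was at 2063, 3178 and 3550 in aorta and 273, 428 and 235 in kidney (log2 fold change 3.41 ± 0.49, limma adjusted p = 9.25e-05). It held without any 1 library. Hspb6, a small heat shock protein that takes part in relaxation, was at 3900, 4686 and 4142 in aorta and 411, 504 and 355 in kidney (log2 fold change 3.40 ± 0.71, limma adjusted p = 0.00254, lost without aorta 2). Sorbs2, an adaptor of the actin cytoskeleton, was the 1 member higher in kidney, at 4646, 4182 and 5084 against 207, 1257 and 1295 (log2 fold change -2.34 ± 0.71, limma adjusted p = 0.0212, lost without aorta 1, aorta 2, kidney 1 or kidney 3).

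Genes that regulate the contractile programme were counted apart from its products, whether they raise or lower it. Of 22 tested regulators 5 were higher in kidney and 1, Ybx1 (lost without aorta 2), in aorta. The shares of all tested genes were 17.6% and 6.01%. The kidney count was 1 without aorta 2, 2 without kidney 1 or kidney 3 and 3 without aorta 1. Mrtfa, the actin-sensing coactivator of serum response factor, was at 617, 193 and 387 in kidney and 9, 28 and 59 in aorta (log2 fold change -3.38 ± 0.79, limma adjusted p = 0.00516, lost without aorta 2). Myocd, the smooth muscle coactivator, was at 711, 169 and 512 in kidney and 0, 8 and 334 in aorta, so the groups overlapped (limma adjusted p = 0.0205, lost without aorta 1, aorta 2, kidney 1 or kidney 3).

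Oxidative phosphorylation and immediate early genes also held many members near the ceiling. Of 45 tested subunits of the respiratory chain 20 were higher in aorta in limma and none in kidney (none at an unadjusted p under 0.05, and none in edgeR), with a median of 1.19. Of these 31 were near the ceiling, and among the 14 under it 3 were higher in aorta. No subunit passed without aorta 2, 1 without kidney 1, 2 without aorta 1, 3 without aorta 3 and 12 without kidney 3. Of 33 tested immediate early genes 7 were higher in aorta and 1 in kidney, none of the 7 among the 10 members under the ceiling, with 4 passing without aorta 1 and none without aorta 2. Fos, a transcription factor induced by stimulation, was at 26519, 15593 and 11127 in aorta and 2010, 2766 and 4605 in kidney (limma adjusted p = 0.0058, lost without aorta 2).

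The 12 largest differences toward aorta took in secreted inhibitors, membrane and muscle proteins. Ppef1, a protein phosphatase with calcium-binding EF hands (chromosome X, 159406090 to 159518761), was at 320, 572 and 770 in aorta and 0 in all kidney libraries, at least 246-fold higher in aorta. Sost, which encodes the Wnt inhibitor sclerostin (chromosome 11, 101853284 to 101857841), was at 452, 786 and 2130 in aorta and 13, 32 and 14 in kidney (log2 fold change 5.31 ± 0.78, limma adjusted p = 0.000105). Sclerostin is best known from osteocytes. Wif1, another secreted Wnt inhibitor, was at 283, 251 and 462 in aorta and 3, 10 and 11 in kidney (log2 fold change 4.29 ± 1.03, limma adjusted p = 0.00641, lost without aorta 2 or 3).

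Sgcd, Sntg2 and Sync were among the 12 largest differences toward aorta with a mean of at least 100 in 3 or more of the other 5 tissues. Sgcd, delta-sarcoglycan, was at 791, 819 and 512 against 21, 55 and 71 (log2 fold change 3.77 ± 0.72, limma adjusted p = 0.0013, lost without aorta 2), and Sntg2, a syntrophin, at 725, 405 and 954 against 36, 30 and 22 (log2 fold change 4.00 ± 0.71, limma adjusted p = 0.000673). None of these genes is near the ceiling. Sync, an intermediate filament protein of muscle, was at 339, 535 and 763 against 16, 22 and 14 (log2 fold change 4.45 ± 0.66, limma adjusted p = 0.000112).

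Genes of striated muscle were also among the largest differences. Myl1, a fast skeletal light chain, was at 188, 811 and 2579 in aorta and 8, 13 and 5 in kidney (log2 fold change 5.78 ± 1.20, limma adjusted p = 0.00246, lost without aorta 2 or 3). Myoz2, a calcineurin-binding protein of the Z disc, was at 273, 511 and 492 in aorta, with 1, 0 and 0 in kidney (limma adjusted p = 0.00298, lost without aorta 2). Myl1 was highest in aorta 3, with the skeletal muscle markers, while Myoz2 was as high in aorta 2. Of the 13 tested skeletal muscle markers 3 were higher in aorta, Myl1, Mylpf and Neb, none without aorta 2 or aorta 3, and 1 without kidney 1 or kidney 3. On rebuilt reads edgeR called 11 of the 13 higher in aorta and DESeq2 called 6.

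Others of the 12 largest were Ccn3, Vstm2b, Itih4, Rgs7 and Cbr2. Itih4, a member of the inter-alpha-trypsin inhibitor heavy chain family, was at 2647, 2562 and 4455 in aorta and 146, 27 and 146 in kidney (log2 fold change 4.69 ± 0.91, limma adjusted p = 0.00152). It was as high in lung, with a mean of 3642, and at 8.3 in stomach. Rgs7, a regulator of G-protein signalling known from neurons, was at 28, 442 and 377 in aorta and 0, 7 and 0 in kidney (log2 fold change 4.65 ± 1.05, limma adjusted p = 0.00443, lost without aorta 2 or 3). Cdh13, T-cadherin and a receptor of adiponectin, was at 4088, 6891 and 5532 in aorta and 392, 1047 and 422 in kidney (log2 fold change 3.58 ± 0.51, limma adjusted p = 7.21e-05).

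Several elastic fibre and matricellular genes were higher in aorta and several basement membrane genes higher in kidney. Of 21 tested elastic fibre genes 7 were higher in aorta in limma and none in kidney (1 at an unadjusted p under 0.05, and none in edgeR), with a median of 0.12. Of these 21, 13 were near the ceiling, and among the 8 under it 1, Mfap5, was higher in aorta. The count was 1 without aorta 2, 3 without aorta 1, aorta 3 or kidney 1, and 5 without kidney 3. Fbln5, a fibulin that assembles elastin (chromosome 12, 101712824 to 101785314), was at 14677, 10223 and 12177 in aorta and 1556, 2892 and 2537 in kidney (log2 fold change 2.46 ± 0.40, limma adjusted p = 0.000259), a call that held without any 1 library. Eln, elastin itself (chromosome 5, 134731447 to 134776177), was at 14950, 10466 and 14681 against 2068, 4176 and 5471 (log2 fold change 1.88 ± 0.58, limma adjusted p = 0.023, lost without aorta 1, aorta 2, aorta 3 or kidney 1). Its rebuilt reads were 1587, 2582 and 4445 in aorta and 4535, 6328 and 4826 in kidney.

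Mfap5, a microfibril protein, was at 6246, 3413 and 3134 in aorta and 344, 1115 and 931 in kidney (log2 fold change 2.55 ± 0.64, limma adjusted p = 0.00812, lost without aorta 2). Of 35 tested proteoglycan and matricellular genes 11 were higher in aorta and 4 in kidney, with a median of 0.71. Among the 18 of them under the ceiling 2 were higher in aorta and 2 in kidney, and without aorta 2 there were 2 and 0. The 2 counts were 7 and 2 without aorta 1, 7 and 1 without aorta 3, 6 and 2 without kidney 1, and 10 and 2 without kidney 3. Ccn3, a matricellular protein that restrains smooth muscle growth (chromosome 15, 54609098 to 54617435), was at 18558, 13202 and 11500 in aorta and 348, 338 and 280 in kidney. All 3 aorta values lay far above those of kidney (log2 fold change 5.35 ± 0.46, limma adjusted p = 1.26e-07), and it is near the ceiling. Here the reads differ as well: aorta had 1970, 3257 and 3482 from shallow libraries and kidney 763, 512 and 247 from deep ones.

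Postn, periostin (chromosome 3, 54268530 to 54298458), was at 6218, 7215 and 14826 in aorta and 447, 317 and 942 in kidney (log2 fold change 3.98 ± 0.57, limma adjusted p = 7.56e-05). Kidney was the lowest of the 7 tissues for it, the other 5 having means of 2251 to 3765. Spp1, osteopontin, ran the other way, at 1057, 1672 and 2459 in kidney and 179, 0 and 7 in aorta (log2 fold change -6.29 ± 1.43, limma adjusted p = 0.00453, lost without aorta 2 or 3). Tubule cells also express osteopontin, and kidney 3 was highest and kidney 1 lowest for both Spp1 and the tubule marker sum; their part in the result was not tested.

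Of 20 tested basement membrane genes 8 were higher in kidney in limma and none in aorta (none at an unadjusted p under 0.05, and 1 in edgeR), with a median of -1.70. The count was 1 without aorta 2, 2 without kidney 3, 3 without aorta 1 or kidney 1 and 4 without aorta 3. Lamb1, a laminin chain, was at 737, 591 and 820 in kidney and 254, 0 and 40 in aorta (log2 fold change -4.55 ± 1.04, limma adjusted p = 0.00463, lost without aorta 2 or 3). Nid2, a nidogen that links laminin and collagen IV, was at 283, 448 and 333 against 9, 0 and 66 (log2 fold change -3.86 ± 0.95, limma adjusted p = 0.00707, lost without aorta 2). Col4a1, the collagen IV chain with the highest mean, overlapped, at 1894, 3174 and 4756 in aorta and 4920, 4080 and 7033 in kidney (limma adjusted p = 0.244).

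Among 23 tested fibrillar and other interstitial collagen genes 3 were higher in aorta (Pcolce2, P4ha2 and Serpinh1, which act in collagen processing and folding) and 3 in kidney (Col2a1, Col8a1 and Col12a1, all collagen chains). The shares of all tested genes were 6.01% and 17.6%. None of the 3 in aorta passed without aorta 1, aorta 2, aorta 3 or kidney 1, and 5 were higher in kidney without kidney 2. Col8a1, a short-chain collagen of the vessel wall, was at 749, 1418 and 2115 in kidney and 226, 12 and 46 in aorta (log2 fold change -4.75 ± 0.70, limma adjusted p = 0.000104). Col12a1, which decorates collagen fibrils, was at 572, 113 and 893 against 9, 12 and 3 (log2 fold change -4.90 ± 0.84, limma adjusted p = 0.000488). The main collagen chains Col1a2 and Col3a1 did not pass (limma adjusted p = 0.0884 and 0.14).

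**Figure D5:**
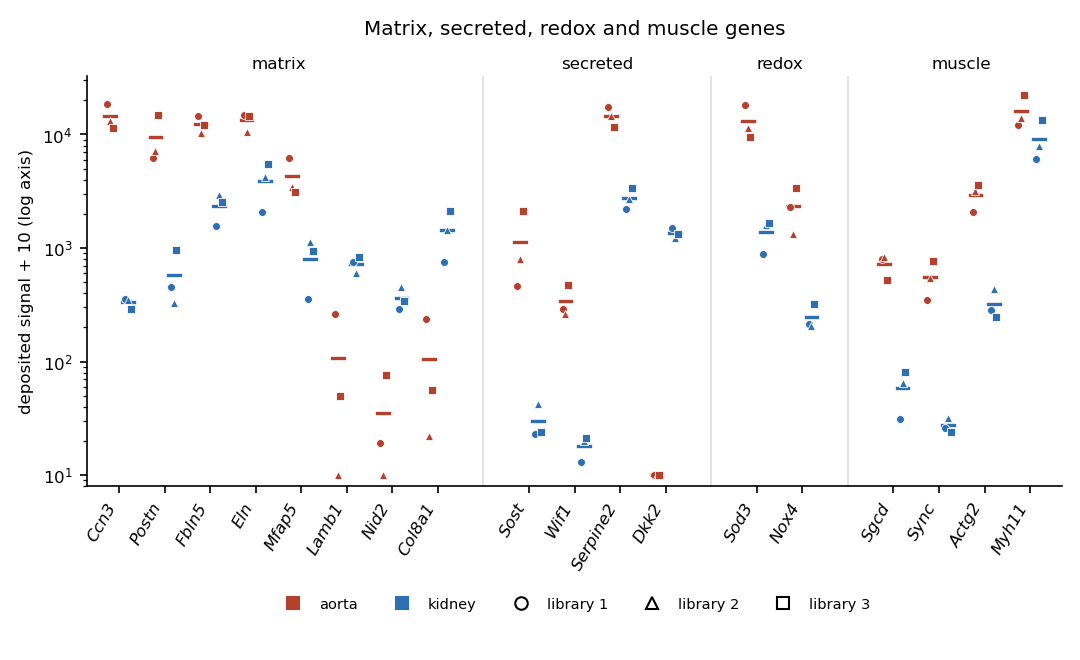
Deposited signal plus 10 (log axis) of matrix, secreted, redox and muscle genes in the 3 aorta (red) and 3 kidney (blue) libraries; symbols mark the library and bars the group mean. Ccn3, Sost and Sgcd lie higher in all aorta libraries, Lamb1, Nid2, Col8a1 and Dkk2 higher in all kidney libraries, and Myh11 overlaps.

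Of 28 tested redox genes 10 were higher in aorta, 3 were higher in kidney and 15 did not pass, with a median of 0.64. Among the 18 under the ceiling these were 4 and 3, and without aorta 2 there were 2 and 1; without aorta 1 there were 6 and 0, without kidney 1 there were 6 and 1, and without aorta 3 there were 7 and 1. Sod3, the extracellular superoxide dismutase of the vessel wall (chromosome 5, 52521133 to 52528760), was at 18332, 11398 and 9482 in aorta and 879, 1592 and 1643 in kidney (log2 fold change 3.21 ± 0.45, limma adjusted p = 6.67e-05). Nox4, a hydrogen peroxide producing oxidase (chromosome 7, 86895304 to 87047918), was at 2270, 1317 and 3349 against 203, 194 and 311 (log2 fold change 3.04 ± 0.67, limma adjusted p = 0.00369). Sod3 is near the ceiling, with rebuilt reads of 1946, 2812 and 2871 in aorta and 1927, 2412 and 1449 in kidney. Nox4 is not near the ceiling, and both calls held without any 1 library.

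Of 13 tested retinoid genes 3 were higher in aorta, 4 were higher in kidney and 6 did not pass, with a median of -0.68. The retinol-binding protein Rbp4 and the retinal reductase Dhrs3 were among those higher in aorta. The enzymes that make retinoic acid, Aldh1a2 and Aldh1a3, were at 0 in all aorta libraries. Aldh1a2 was at 93, 486 and 160 in kidney, at least 14.7-fold higher, and Aldh1a3 at 77, 218 and 304, at least 11.9-fold higher but lost without aorta 2 or 3. Without aorta 2 there were 2 higher in aorta and 1 in kidney, and without aorta 1, aorta 3, kidney 1 or kidney 3 there were 2 in kidney.

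Of 34 tested genes of Wnt and Hedgehog signalling 4 were higher in aorta (Sost is not on the list) and 8 in kidney, beside 6.01% and 17.6% of all tested genes, with a median of -1.33; without aorta 2 there were 0 and 1, without aorta 3 there were 0 and 3, without aorta 1 there were 3 and 5, without kidney 1 there were 2 and 8, and without kidney 3 there were 2 and 4. Dkk2, a secreted Wnt antagonist (chromosome 3, 131791053 to 131886065), was at 1500, 1220 and 1321 in kidney and 0 in all aorta libraries, at least 80.3-fold higher. Among the other tissues Dkk2 was at a mean of 2097 in bladder and at most 129 elsewhere, the same pair of tissues that held Hoxa10. Lgr6, a receptor of R-spondins, was at 754, 462 and 1767 in aorta and 60, 66 and 31 in kidney (log2 fold change 3.84 ± 1.05, limma adjusted p = 0.0129, lost without aorta 2 or 3). Ptch1, the Hedgehog receptor and a target of the pathway, was at 308, 146 and 423 in kidney and 57, 8 and 7 in aorta (log2 fold change -3.83 ± 0.70, limma adjusted p = 0.000849, lost without aorta 2).

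Among growth factor systems 11 of 42 tested genes were higher in kidney and 3 in aorta, beside 17.6% and 6.01% of all tested genes. The median was -0.89, and without aorta 2 there were 4 and 0. Without aorta 1 or aorta 3 there were 5 and 1, without kidney 1 there were 4 and 2, and without kidney 3 there were 6 and 2. Igfbp3, a binding protein of insulin-like growth factors, was at 1451, 2764 and 2517 in kidney and 9, 211 and 76 in aorta (log2 fold change -4.31 ± 0.57, limma adjusted p = 3.36e-05), a call that held without any 1 library. Pdgfrb, the receptor that recruits mural cells, was at 3983, 1881 and 5039 in kidney and 791, 511 and 1371 in aorta (log2 fold change -2.27 ± 0.67, limma adjusted p = 0.0195, kept only without kidney 2 among the fits that leave out 1 library). Of 41 tested genes of TGF-beta and BMP signalling 5 were higher in aorta and 6 in kidney, with a median of -0.31. The shares of all tested genes were 6.01% and 17.6%, and without aorta 2 the list counts were 0 and 1. The 2 counts were 3 and 3 without aorta 1, 1 and 2 without aorta 3, 1 and 3 without kidney 1, and 4 and 2 without kidney 3, with 9 higher in kidney without kidney 2. Smad7, the inhibitory Smad, was at 844, 511 and 794 in kidney and 47, 113 and 119 in aorta (log2 fold change -2.81 ± 0.51, limma adjusted p = 0.000794), and it held without any 1 library.

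Of 32 tested interferon response genes 17 were higher in kidney, 2 were higher in aorta and 13 did not pass, with a median of -1.72. In 20 of them all kidney libraries lay above those of aorta, beside 25.6% of all tested genes. The summed signal of the list overlapped between the tissues, at 20573, 16559 and 11246 in aorta and 14566, 17352 and 14166 in kidney. The kidney count was 9 without aorta 2 and at least 12 without any other library. The 2 higher in aorta, B2m and H2-D1, belong to class I antigen presentation and are near the ceiling; without aorta 1, aorta 2 or kidney 1 neither passed. Ifih1, the cytoplasmic sensor of double-stranded RNA, was at 289, 234 and 308 in kidney and 0 in aorta, at least 16.5-fold higher. Rsad2, the antiviral protein viperin, was at 444, 915 and 504 against 9, 0 and 0 (limma adjusted p = 0.000284). Irf7, the factor that amplifies the response, was at 379, 475 and 201 in kidney and 122, 0 and 0 in aorta (log2 fold change -4.32 ± 0.82, limma adjusted p = 0.00126, lost without aorta 2 or 3). All 17 lie under the ceiling, and endothelial and tubule markers were higher in the same libraries.

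Genes of hypoxia and glycolysis were counted last. Of 26 tested 4 were higher in aorta and 7 in kidney, beside 6.01% and 17.6% of all tested genes, with a median of -0.40. Without aorta 2 there were 0 and 2, without aorta 1 there were 2 and 4, and without aorta 3 or kidney 1 there were 1 and 5. Aldoa and Ldha, enzymes of glycolysis near the ceiling, were higher in aorta. Epas1, the hypoxia-inducible factor HIF-2 alpha, was at 3601, 1862 and 4699 in kidney and 386, 713 and 297 in aorta (log2 fold change -2.91 ± 0.61, limma adjusted p = 0.00251), a call that held without any 1 library. Epas1 is expressed in endothelium and renal interstitial cells as well as in mural cells.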

How the data were processed

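Expression in the 22 libraries was deposited by the authors as 1 table of 28099 genes. The deposited signal is in whole numbers, and the spacing of its low values shows that the authors scaled each library by its own factor. The submitters' processing notes list these tools without their roles: STAR 2.7.10a, featureCounts 2.0.4, Picard 3.0.0, DESeq2 1.36.0, DESeq and Trimmomatic 0.39, with mm39 as the build. All 22 library columns were mapped to samples by their titles.

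The signal of 1 read in each library was found by a likelihood search, and dividing by it gave rebuilt reads; between 99.86% and 100.0% of values in the aorta and kidney libraries lay on whole multiples, which says little where 1 read is worth less than 1 unit, as in kidney 1 and 2. The search was wrong by over 1% in 2 of 30 simulated libraries. Exonic lengths came from GENCODE M21 by gene identifier, for 96.2% of genes.

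Genes with a mean signal of at least 30 over the 6 libraries were tested with the trend method of limma 3.58.1 in R 4.3.3, applied to log2(signal + 10), with array weights, over all 22 libraries in 7 tissue groups, so that the spread is shared. Fold changes on that scale understate changes of low genes. On 1 set of simulated counts the fit recovered 95 of 100 genes changed 8-fold and 2 of 100 changed 2-fold. There were 20 false calls among 11668 unchanged genes, none of them higher in aorta. The simulated spread was set by hand, larger in aorta than elsewhere, and no read ceiling was simulated. These rates therefore need not hold for the real libraries. Alternatives included edgeR 4.0.16 and DESeq2 1.42.0 on rebuilt reads. A fold against a tissue at 0 is a bound against 3 reads per library, a mean signal of 16.8 in aorta and 2.2 in kidney, and with 1 to 3 reads no fold is given.

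The comparison, gene lists and tests were chosen with earlier results of these data known. Candidates for naming had an adjusted p under 0.05, no overlap between tissues, an absolute log2 fold change of at least 1, a mean of at least 200 in the higher tissue and the same sign in every alternative. Acta2, Cspg4, Myh11 and Ren1 were always named. Of the candidates, the 12 largest in each direction were taken, the 12 largest with a mean of at least 100 in 3 of the other 5 tissues and the 8 largest under the ceiling. Each of 43 lists added, without those criteria, its 4 largest differences past the threshold and its 2 members of highest mean. Tbx1, Pax1, Pbx2, Meis1, Sorbs2, Tagln, Smtn, Art3, Tagln2, Casq1, Kcnc4, Calcrl, Ramp3, P4ha2 and Serpinh1 were named after their values were seen, and so were the lists to describe. Not every gene the rule named is described.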

Additional observations from a re-analysis of the deposited data

How the results depend on the processing

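Of 193 named genes past the threshold, none changed direction in any of 19 alternatives, and 65 kept the call in all that could be fitted. Candidates for naming had to keep their sign in every alternative, so for them the lack of a change in direction was fixed in advance. Genes added by the lists were named without that criterion. Leaving out 1 library gave between 54 and 820 genes higher in aorta, between 364 and 2318 higher in kidney, and medians between -0.78 and -0.41. Without array weights the counts were 1447 and 3874. On rebuilt reads edgeR gave 1837 and 2266, so that 44.8% of its calls were higher in aorta against 25.5% in limma, and a median of -0.21; DESeq2 gave 1955 and 3170. Of 2796 genes called by limma, 2373 were also called in the same direction by edgeR, which is 84.9% of the limma calls and 57.8% of those of edgeR. Among genes under the read ceiling 265 were higher in aorta, and with a pseudocount of 1 there were 419. With no filter on low values the median was -0.19. Reads thinned to the shallowest library gave 662 and 2542, and TMM scaling 752 and 1830. The cause of these shifts was not tested. Libraries with the same replicate number correlated at -0.145, 0.091 and 0.064 after group means were removed. Those with different numbers ran from -0.192 to 0.176. With 3 libraries per tissue these values cannot decide whether the numbers pair the samples, and the labels do not say. With a replicate block 711 genes were higher in aorta and 2038 in kidney. The shallow aorta libraries limit what can be seen there: a gene listed at 0 in aorta may still be expressed under the floor of 3 reads.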

Other observations

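Myh6, the alpha myosin heavy chain of heart muscle, was higher in kidney. It was at 2028, 310 and 1295 in kidney against 9, 4 and 3 in aorta, where each library held 1 read (limma adjusted p = 0.000728), and the call held without any 1 library. Its mean in the other 5 tissues was 191 in heart and at most 39.0 elsewhere, so the kidney libraries held more of it than the heart libraries of the series. Of 15 cardiomyocyte markers 7 were tested, and limma called only Myh6, in kidney, while edgeR called 3 higher in aorta. Kidney 2, where Myh6 was lowest of the kidney libraries, was also the lowest of them for Cspg4 and Kcnj2.

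Gap junction genes differed member by member. Of 5 tested, Gja1 was higher in aorta, at 895, 563 and 1922 against 229, 156 and 229 (log2 fold change 2.10 ± 0.46, limma adjusted p = 0.00369, lost without aorta 3). Gja5 and Panx1 were higher in kidney, and both were lost without aorta 2 or aorta 3, Panx1 also without aorta 1, kidney 2 or kidney 3. Gja4 was at 367 to 2164 in aorta and 1181 to 1703 in kidney, and Gjc1 at 565 to 1621 in aorta and 1082 to 1305 in kidney, so both overlapped.

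Among 12 tested regulators of G-protein signalling 4 were higher in kidney in limma, and 1 without aorta 2; limma called none higher in aorta (none at an unadjusted p under 0.05, and 1 in edgeR). Rgs7, which was higher in aorta, is not on the list. Rgs2, which shortens angiotensin and noradrenaline signals, was at 1703, 1757 and 1922 in kidney and 226, 486 and 317 in aorta (log2 fold change -2.27 ± 0.50, limma adjusted p = 0.00382), and it held without any 1 library. Rgs5, a marker of pericytes and arterial smooth muscle, was at 1046, 1666 and 5654 in aorta and 3661, 5236 and 8095 in kidney, with overlapping groups (limma adjusted p = 0.241).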
